A study of Mus musculus with 12 samples.

Results

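Day 3 after the removal of doxycycline (Dox) from Esrrb_R mouse embryonic stem cells was set against the average of days 0 and 5. The aim was to find genes whose messenger RNA had a level at day 3 that it had neither at day 0 nor at day 5. The contrast is the mean log2 signal of the 3 arrays of day 3 minus the average of the day 0 and day 5 means, each over 3 arrays. No gene was selected: all 19938 genes that probe sets with a single gene symbol cover entered, of 19938 in the series, and 9 of its 12 arrays enter the contrast directly.

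Esrrb_R cells are 1 clonal line in which a constitutive short hairpin RNA silences the endogenous Esrrb, while an exogenous copy that the hairpin does not recognise is expressed only with Dox. All groups therefore carry the hairpin and the inducible copy. Day 3, day 5 and day 1 cells were grown without Dox, and day 0 cells with 1 µg/ml Dox, all in serum with Lif on gelatin, from a line kept on fibroblast feeders before the experiment, with 3 biological replicates a day on Affymetrix Mouse Gene 1.0 ST arrays. No array controls for Dox or for time alone, so the removal of Dox, the loss of Esrrb and time in culture cannot be told apart, and in these bulk samples fewer cells of a type and less RNA per cell cannot be told apart either.

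Esrrb is an orphan nuclear receptor of the naive state of pluripotency, the state of the early epiblast, in which a network of factors such as Nanog, Klf4 and Tfcp2l1 is sustained by Lif through Stat3. Cells that leave this state pass through a formative stage towards the primed epiblast, lose naive factors, gain Otx2, Dnmt3b and Fgf5, and rely more on glycolysis. They then become able to respond to signals of germ layer formation such as Nodal and Bmp4.

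The defining markers of embryonic stem cells were measured on every array. Pou5f1, which encodes Oct4, lay at 12.29 to 12.35 at day 3, against 12.36 to 12.48 at day 0 and 11.80 to 12.05 at day 5. Its difference of day 3 from day 0 was -0.12 (adjusted p = 0.25 from limma). The other defining markers were lower at day 3 than at day 0, each with adjusted p under 0.05 from limma. They were Zfp42 (-1.42), Nanog (-0.62), Dppa5a (-0.58), Sox2 (-0.39) and Utf1 (-0.21). Arrays give no read depth, and their number limits the precision. The medians of the 12 arrays lay between 6.92 and 7.05. By array quality weights the arrays of day 3 (0.89 to 1.37) stood between the extremes of the series (0.54 to 1.99).

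At day 3, 2064 genes were higher than the average of days 0 and 5 (10.4% of the genes tested) while 2232 lay below it (11.2%), where limma's adjusted p under 0.05 made a call. The counts of list members given below are to be read beside these shares. A contrast of this kind is also met by a gene that had moved by day 3 and stayed, or that moved only afterwards. A passing rise was therefore defined as a call above day 0 and a call above day 5, and a passing fall as a call below both. Day 1 is not part of this rule, so that a passing gene may have reached its day 3 level by day 1. By this rule 869 genes had a passing rise (4.36%) and 605 a passing fall (3.03%), and all of them were also called in the contrast. The rest of the genes called higher were mostly genes that were called by day 3 and then held (627) or that changed only after day 3 (484), and the rest of the genes called lower likewise (771 and 713). The split between rises and falls depends on the scale. With every array centred on its own median over all probe sets, with or without a symbol, there were 475 passing rises and 828 passing falls. This centring lowers day 3 by 0.058 against days 0 and 5, whereas the median contrast over the genes was 0.004 before it. It therefore moves the genes as a set below 0, a limit of all results with centred arrays given below. After a further quantile normalization there were 756 of each.

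**Figure D1:**
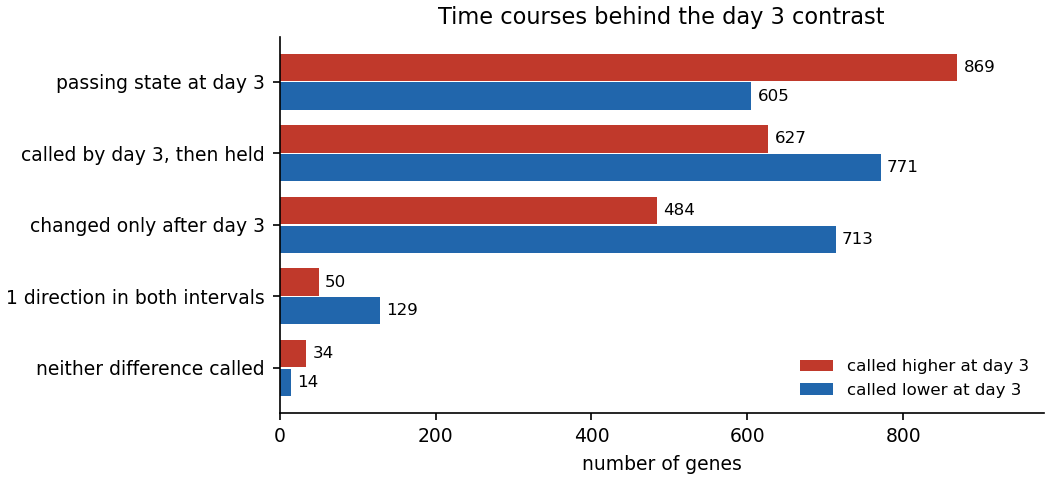
Numbers of genes called higher (upper bar of each pair) or lower (lower bar) at day 3 than the average of days 0 and 5, by their time course. The passing states hold 869 of the genes called higher and 605 of the genes called lower.

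Most passing changes were small. The median contrast was 0.39 among passing rises and -0.39 among passing falls, beside 0.004 over all genes. The contrast exceeded 1, a 2-fold difference, in 33 passing rises and in 33 passing falls, and both of its differences did so in 12 and 17 genes. All 3 arrays of day 3 lay above all 6 arrays of days 0 and 5 for 1493 genes (7.49%) and below them for 1130 (5.67%). Of the genes with a passing rise 847 of 869 were separated in this way, and of those with a passing fall 593 of 605.

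The share of passing genes that day 5 did not separate from day 0 was near that of all genes. For 582 of the 869 passing rises (67.0%) and 396 of the 605 passing falls (65.5%) day 5 was not called against day 0, beside 65.0% of all genes. The median gene with a passing rise had by day 5 given back 92.0% of its difference between days 3 and 0 (quartiles 66.4% and 124.5%), and the median gene with a passing fall 102% (quartiles 70.8% and 139.6%). A call between days 3 and 5 is part of the rule, so that some return follows from it. Of the 869 passing rises 414 (47.6%), and of the 605 passing falls 323 (53.4%), kept the call in every fit run for the gene. Of the passing rises, 191 were still higher at day 5 than at day 0 and 96 had gone below day 0. Of the passing falls, 106 were still lower and 103 had gone above.

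**Figure D2:**
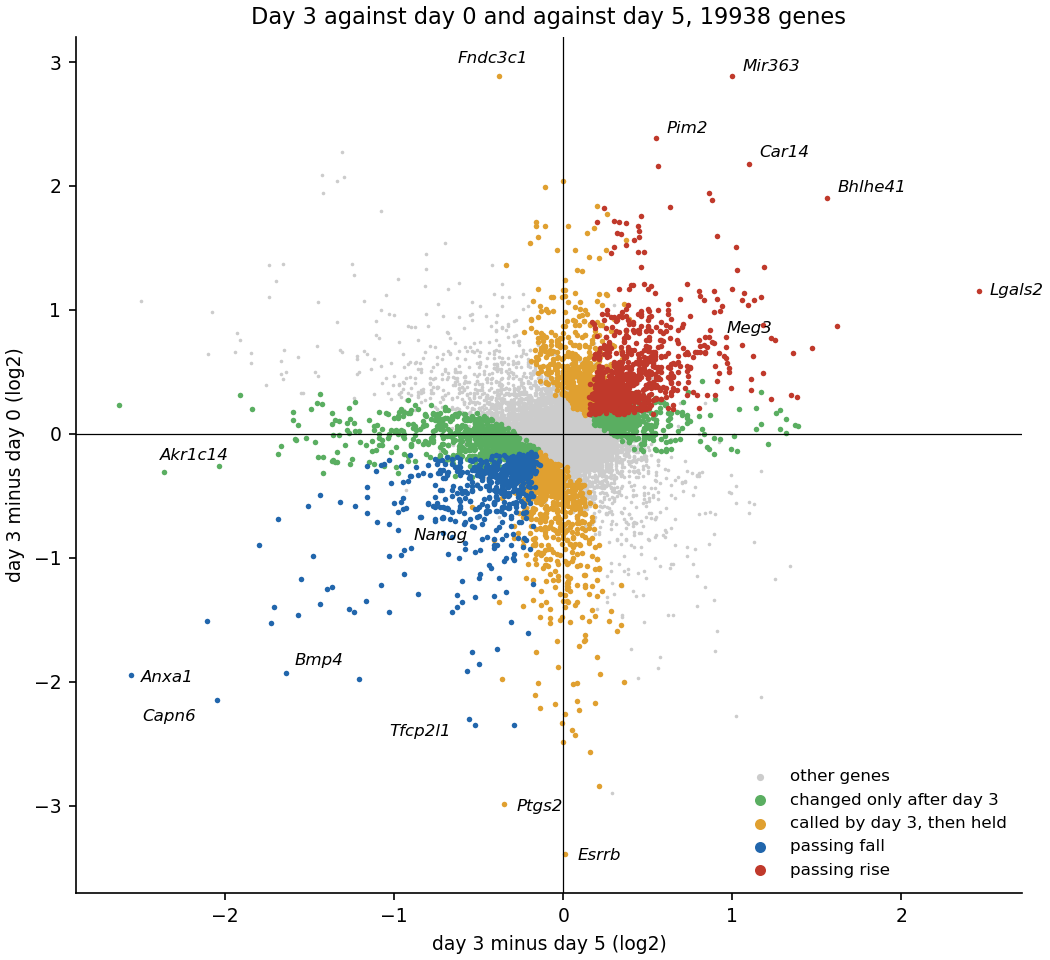
Difference of day 3 from day 0 (vertical axis, log2) and from day 5 (horizontal axis, log2) for each gene, coloured by time course. Passing rises fill the upper right and passing falls the lower left, while Esrrb and Ptgs2 lie near 0 on the horizontal axis and Akr1c14 near 0 on the vertical one.

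The microRNA gene Mir363 had the largest passing rise. Its log2 signals were 7.68, 7.81 and 7.71 at day 3, against 4.82, 4.78 and 4.92 at day 0 and 6.80, 6.59 and 6.82 at day 5. No array of day 3 overlapped the others, and the contrast was 1.94 (standard error 0.08, adjusted p = 3.6e-08 from limma). Lgals2, a galectin that binds galactosides, had signals of 8.86, 9.30 and 9.04 at day 3, against 7.86, 8.0 and 7.90 at day 0 and 6.54, 6.79 and 6.48 at day 5 (contrast 1.81, standard error 0.10, adjusted p = 2.0e-07). It was already at 9.69 on average at day 1 and left day 5 below its starting level. Bhlhe41, a repressor of the circadian clock, was at 7.93, 7.86 and 7.85 at day 3, against 5.76, 6.22 and 5.94 at day 0 and 6.05, 6.64 and 6.27 at day 5 (contrast 1.73, standard error 0.13, adjusted p = 1.9e-06). Its day 1 mean of 6.51 was 0.54 above day 0 (adjusted p = 0.036), and the larger step of 1.36 came between days 1 and 3 (adjusted p = 4.7e-05).

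Further large passing rises were those of Car14, a membrane-bound carbonic anhydrase (1.64), the survival kinase Pim2 (1.47), the sialyltransferase St6gal2 (1.40), Mal2, a protein of apical transport (1.38), the axonal kinesin Kif1a (1.36), Tmem54 (1.26), the X-linked long noncoding RNA Firre (1.26) and Fgf15, a secreted fibroblast growth factor (1.25). In limma none of these had an adjusted p above 2.1e-06, and none showed overlap between day 3 and the other days. Pim2 and Kif1a kept most of the rise: Pim2 averaged 9.20, 10.68, 11.59 and 11.04 at days 0, 1, 3 and 5, and Kif1a 7.16, 7.60, 9.33 and 8.76.

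The clearest returns were those of Syt11, Lncpint, Aldoc, Mir380, Slc27a2 and Bcl11a, whose day 5 means lay within 0.2 of day 0. Syt11, a synaptotagmin of vesicle membranes, had signals of 9.26, 9.33 and 9.37 at day 3, against 8.07, 8.12 and 7.70 at day 0 and 8.05, 8.21 and 8.12 at day 5 (contrast 1.27, standard error 0.08, adjusted p = 4.7e-07 from limma). Bcl11a, a zinc finger repressor known from blood and brain, was at 8.13, 8.35 and 8.18 at day 3, against 7.13, 7.25 and 7.02 at day 0 and 7.05, 7.15 and 7.28 at day 5 (contrast 1.07, standard error 0.07, adjusted p = 5.1e-07). At day 1 the means were 8.38 for Bcl11a, above that of day 3, and 8.28 for Syt11, below it. In all, 593 passing rises and 401 passing falls ended within 0.2 of day 0.

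Anxa1, annexin A1, a membrane-binding protein with anti-inflammatory functions, had the largest passing fall. Its signals were 9.06, 8.86 and 9.24 at day 3, against 10.97, 11.18 and 10.86 at day 0 and 11.71, 11.54 and 11.60 at day 5 (contrast -2.25, standard error 0.09, adjusted p = 2.8e-08 from limma). All arrays of day 3 were over 1.5 below every other array of the contrast, and day 5 ended 0.61 above day 0. Capn6, a calpain without protease activity that binds microtubules, was at 7.53, 7.07 and 7.41 at day 3, against 9.43, 9.55 and 9.47 at day 0 and 9.19, 9.32 and 9.65 at day 5 (contrast -2.10, standard error 0.11, adjusted p = 1.8e-07). It returned to the level of day 0 within the spread of the arrays. Bmp4, the ligand that promotes mesoderm and, in serum-free culture with Lif, self-renewal, was at 7.57, 7.37 and 7.53 at day 3, against 9.39, 9.55 and 9.33 at day 0 and 9.27, 9.04 and 9.09 at day 5 (contrast -1.79, standard error 0.07, adjusted p = 2.8e-08).

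The other large passing falls were of Acta2, smooth muscle actin (-1.81), the macrophage growth factor Csf1 (-1.63), the membrane protein Emp1 (-1.60), the matrix protein thrombospondin 1, Thbs1 (-1.55), the naive factor Tfcp2l1 (-1.43), the transporter Flvcr2 (-1.43), Gprc5a (-1.41), the calcium-binding protein S100a6 (-1.36) and Flrt2 (-1.35), with no adjusted p above 7.7e-06 in limma. Csf1, Gprc5a, Ccdc80 (-1.34), Nup62cl (-1.33) and Serpinb9b (-1.31) had day 5 means not called against day 0. Csf1 for example was at 6.91, 6.92 and 7.28 at day 3, against 8.69, 8.51 and 8.51 at day 0 and 8.85, 8.56 and 8.89 at day 5.

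**Figure D3:**
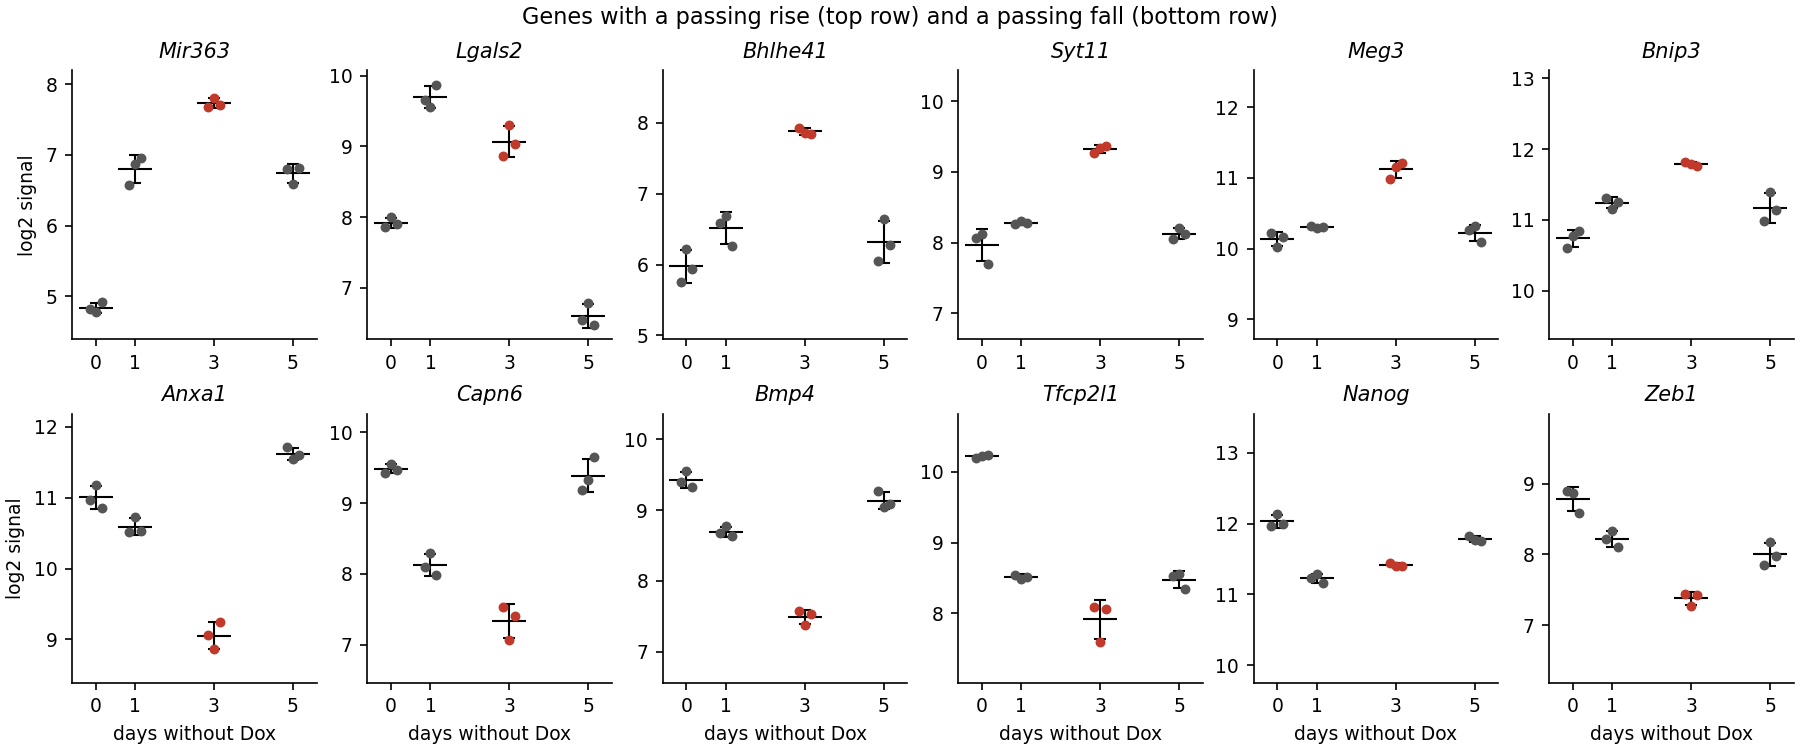
Log2 signal of 6 genes with a passing rise and 6 with a passing fall on each array (points, day 3 in red), with each day's mean and SD over 3 arrays, plotted by days since Dox was removed. The vertical axes differ in position but not in span; in Lgals2, Tfcp2l1 and Nanog much of the change is present at day 1.

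Esrrb itself was not a passing gene. Its signals were 8.20, 8.07 and 8.34 at day 3, against 11.59, 11.54 and 11.63 at day 0 and 8.15, 8.28 and 8.13 at day 5, so that its contrast of -1.69 (standard error 0.06, adjusted p = 2.8e-08 from limma) came from day 0 alone. Days 3 and 5 overlapped, with a difference of 0.01 (adjusted p = 0.92). Ptgs2, the inducible cyclooxygenase (-1.67), and on the side of the rises Fndc3c1 (1.25), the surface protein Prom1 (1.02) and the transcription factor Zic2 (1.02) were likewise called against day 0 and not against day 5. For Prom1 the arrays of day 3 (8.92, 8.78 and 8.83) nevertheless lay above those of day 5 (8.76, 8.55 and 8.62). Akr1c14 (-1.33), by contrast, was not called between days 3 and 0, and its difference of day 3 from day 5 was -2.36. Ptgs2 became a passing fall, and Prom1 a passing rise, under 4 of the 22 ways of fitting the data.

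Naive pluripotency factors were low at day 3, and few came back. Of 18 genes 15 were lower in the contrast and none was higher (median -0.50, 0.004 over all genes), but only Tfcp2l1, Klf4, Nanog and Klf5 were passing falls. Nanog had signals of 11.44, 11.40 and 11.40 at day 3, against 11.96, 12.14 and 11.99 at day 0 and 11.83, 11.77 and 11.75 at day 5 (contrast -0.50, standard error 0.05, adjusted p = 2.5e-05 from limma). Its lowest mean was that of day 1 (11.23), and day 5 was still 0.25 below day 0. Klf4 was at 9.01, 8.83 and 8.87 at day 3, against 9.60, 9.82 and 9.82 at day 0 and 9.34, 9.44 and 9.37 at day 5 (contrast -0.66, standard error 0.06, adjusted p = 9.8e-06), and Klf5 moved by -0.42 (adjusted p = 1.1e-04). Tfcp2l1 averaged 10.22, 8.52, 7.92 and 8.48 at days 0, 1, 3 and 5, so that it regained little of its fall. Nr0b1 (-1.32), Tbx3 (-0.74), Nr5a2 (-0.74) and Zfp42 (-0.63) were lower and then held, and Tcl1 (-0.77) fell in both intervals.

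Among 22 general pluripotency genes 8 were higher (4 with centred arrays and without day 3 replicate 2, 5 without day 3 replicate 3) and 1, the ubiquitin ligase Rnf125 (-0.44), was lower (median 0.11). Lin28b, which blocks the maturation of let-7 microRNAs, was the only passing rise among them (0.80, standard error 0.07, adjusted p = 7.1e-06 from limma), with 9.47, 9.35 and 9.39 at day 3, against 8.34, 8.17 and 8.10 at day 0 and 9.07, 8.93 and 8.99 at day 5. Dnmt3l (0.37) and L1td1 (0.26) were called because they fell after day 3, and Dppa4 (0.26) because most of its fall came after day 3. Pou5f1 (0.12, adjusted p = 0.18), Sox2 (-0.06, adjusted p = 0.45), Sall4 (-0.07), Krr1 (-0.05), Dppa2 (-0.18), Zscan10 (0.14) and Sumo3 (0.05) were not called. Sox2 and Dppa2 were lower at day 3 than at day 0 and lower again at day 5, which leaves day 3 near the average of the ends. Fgfr2 (-0.75) and Trim25 (-0.20) were lower by day 3 and then held. Gli2, an effector of hedgehog signaling, had a passing fall of -0.45 that was lost in 6 of the 22 fits.

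Genes of the primed epiblast were high at day 3 and already at day 1. Of 16 genes 10 were higher in the contrast and none was lower (median 0.32), with passing rises of Fgf15, Otx2, Sall2 and Dnmt3b. The mean log2 signal of the list was 9.15 to 9.26 on the arrays of day 3 and 9.18 to 9.23 at day 1. It was 8.64 to 8.68 at day 0 and 8.75 to 8.89 at day 5. Dnmt3b, a de novo DNA methyltransferase, was at 11.94, 12.05 and 11.91 at day 3, against 11.26, 11.21 and 11.13 at day 0 and 11.16, 11.07 and 11.26 at day 5 (contrast 0.78, standard error 0.06, adjusted p = 1.6e-06 from limma). Otx2, the transcription factor that opens the formative program, was at 10.64, 10.75 and 10.70 at day 3, against 9.93, 10.26 and 10 at day 0 and 9.40, 9.86 and 9.48 at day 5 (contrast 0.87, standard error 0.09, adjusted p = 2.9e-05). Fgf15 (1.25) and Otx2 ended below day 0, whereas Sall2 (0.85) stayed above it. Fgf5, the usual marker of the later epiblast, was not of this kind, with means of 7.74, 8.69, 9.45 and 9.61 at days 0, 1, 3 and 5. Dnmt3a, counted among the 10 with a contrast of 0.28, fell in both intervals, and Lef1 (0.27) was called because it fell after day 3.

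Among the other DNA methylation genes, where 3 of 12 were higher and 3 lower, Mbd2, a reader of methylated DNA (-0.52), and Gadd45a (-0.38) had passing falls, and Tet2 (-0.68) was lower and held. Of 12 genes of Polycomb repressive complex 2, Phf19 (-0.42) and Eed (-0.17) were lower, neither as a passing fall.

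Mesoderm genes were low at day 3, while the mean of the trophectoderm genes was low mainly against day 5. Of 19 mesoderm genes 14 were lower and none higher (median -0.39), but the passing falls were only those of Bmp4, Acta2 and Pdgfra, the platelet-derived growth factor receptor. Pdgfra averaged 11.78, 11.46, 11.18 and 11.88 at days 0, 1, 3 and 5 (contrast -0.65, standard error 0.08, adjusted p = 7.7e-05 from limma). Prrx1 (-0.65) was lower and held, while Msx2 (-0.44) and Tagln (-0.60) were called because they rose after day 3. Among primitive streak and mesendoderm genes, 5 of 16 were lower (3 without day 3 replicate 3) and none higher. Eomes, a T-box factor of the streak, was at 7.36, 7.18 and 7.24 at day 3, against 7.91, 8.11 and 7.88 at day 0 and 8.84, 7.75 and 8.48 at day 5 (contrast -0.90, standard error 0.17, adjusted p = 0.0018). Its passing fall was lost without day 0 replicate 2 or day 3 replicate 2, and that of Nodal (-0.40) without day 3 replicate 2, which leaves 0 passing falls in this list without that array.

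Of 15 trophectoderm genes 8 were lower and none higher (median -0.44), with passing falls of Tead4 (-0.64), Tfap2c (-0.67) and Eomes. The mean log2 signal of this list was 7.90 to 7.93 on the arrays of day 3, near the 7.95 to 8.05 of day 0. At day 5 it was 8.54 to 8.62. The keratin Krt7 (-0.71) was called because it rose after day 3, and Krt18 (-0.60) rose in both intervals, mostly in the last. For primitive and visceral endoderm, 5 of 19 genes lay higher and 7 lower. Gata6, the factor that specifies primitive endoderm, had a passing fall of -0.44, lost in 6 of 22 fits, and Ttr, transthyretin, a passing rise of 0.67, while the endocytic receptors Cubn (0.72) and Amn (0.66) were called because they fell after day 3. Of 16 neuroectoderm genes 3 were higher and 1 lower, with a single passing change, a fall of the neuronal Stmn2 (-0.43). Nes, nestin (0.94), and Msi1 (0.56) rose by day 3 and held. Of the defining factors, Cdx2 and Elf5 of trophectoderm and Sox1, Pax6 and Tubb3 of neural cells were not called in the contrast. Pax6 nevertheless fell, with means of 6.87, 6.52 and 6.09 at days 0, 3 and 5. Gata3 of trophectoderm (-0.44) and Gata4 (-0.39) and Sox17 (-0.37) of primitive endoderm were called lower because they rose after day 3.

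**Figure D4:**
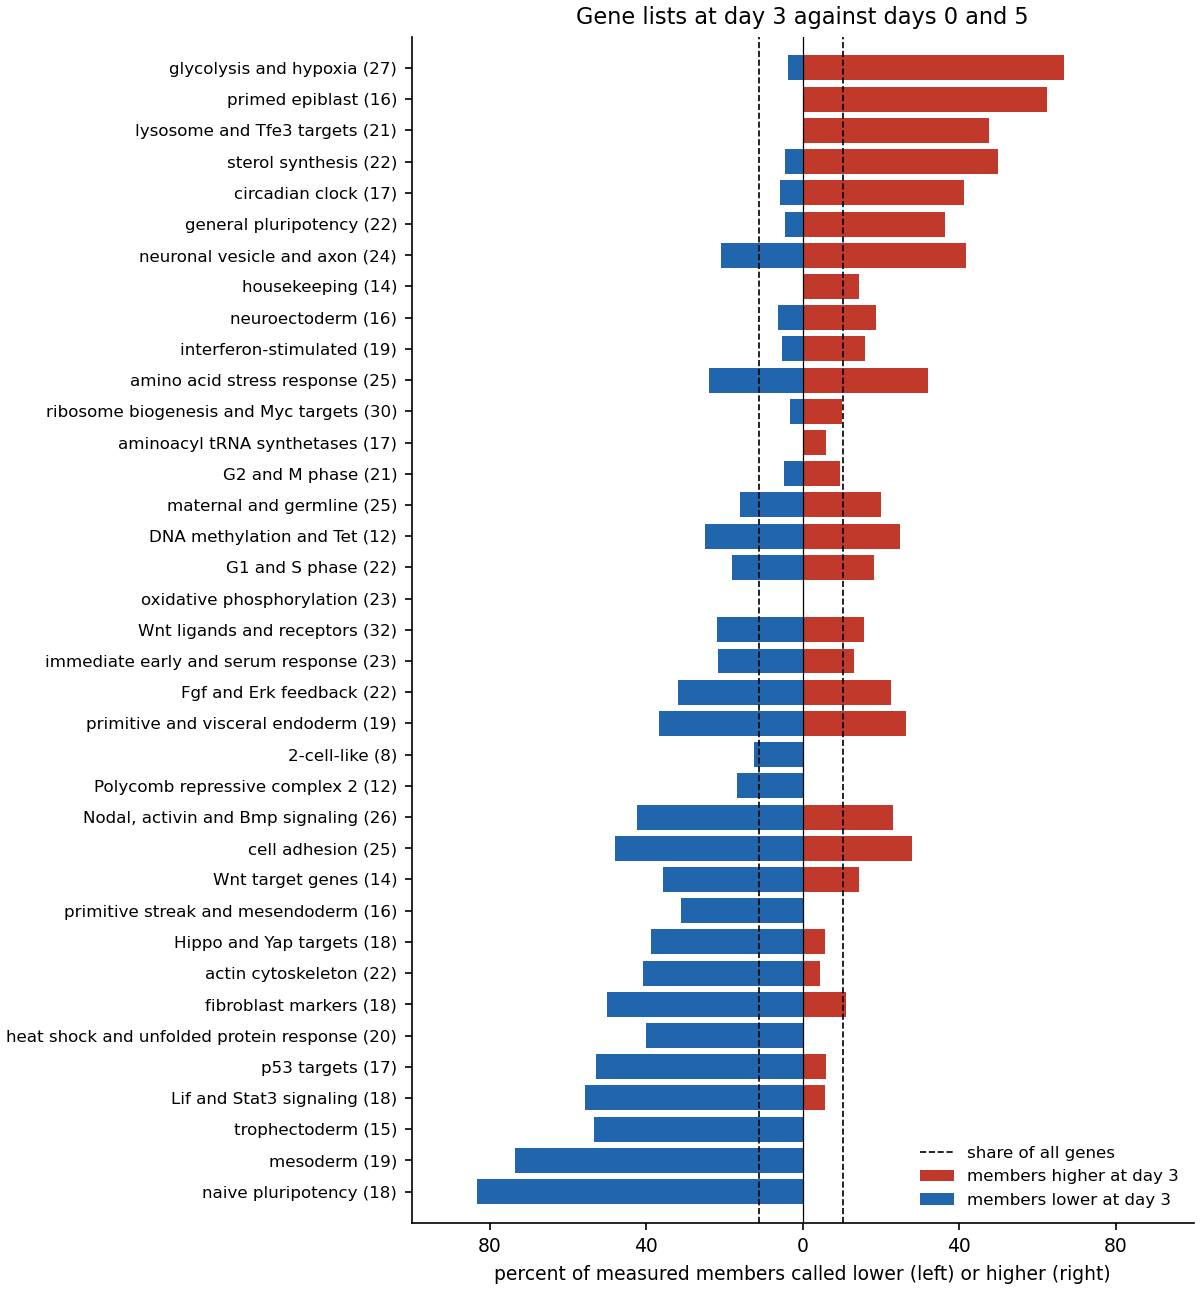
Percent of the measured members of each gene list (number in brackets) called higher (right) or lower (left) at day 3 than the average of days 0 and 5. Dashed lines mark the shares over all genes, 10.4% and 11.2%; naive pluripotency and mesoderm lie lowest, glycolysis and hypoxia and the primed epiblast highest.

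Several genes of mesenchymal and matrix-forming cells fell and returned. Of 18 fibroblast markers 9 were lower, 8 of them as passing falls, and 2, Mmp2 (0.45) and Thy1 (0.51), were higher. Col1a2, a chain of collagen I, was at 8.18, 8.02 and 8.11 at day 3, against 9.58, 9.36 and 9.68 at day 0 and 9.39, 9.14 and 9.48 at day 5 (contrast -1.34, standard error 0.08, adjusted p = 4.0e-07 from limma). Vim, the filament protein vimentin, was at 11.48, 11.37 and 11.60 at day 3, against 12.47 on each array of day 0 and 12.63, 12.34 and 12.58 at day 5 (contrast -1.01, standard error 0.07, adjusted p = 7.4e-07). Timp1 (-0.76), an inhibitor of matrix proteases, fell likewise, and Lox (-1.18) fell without return.

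The mean log2 signal of the 18 fibroblast markers was 7.58 to 7.62 on the arrays of day 3, against 8.02 to 8.09 at day 0 and 7.81 to 7.93 at day 5. The line had been kept on fibroblast feeders, and the part of such cells in these falls was not tested. Of the defining markers Col1a1, Col1a2, Col3a1, Postn and Dcn had passing falls, Lum was not called (-0.07), and Thy1 had a passing rise, which was lost without day 0 replicate 2 or day 3 replicates 1 or 2. The fall of Dcn was kept in 15 of 21 fits.

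A group of 18 genes was chosen for their passing falls, after the values were seen, so that their number is no result about a class of genes. Zeb1, a repressor of epithelial genes, was at 7.44, 7.27 and 7.42 at day 3, against 8.90, 8.86 and 8.58 at day 0 and 7.85, 8.17 and 7.98 at day 5 (contrast -1.01, adjusted p = 5.3e-06 from limma). The caveola protein Cav1 (-1.23), the procollagen enhancer Pcolce (-1.07), the collagen Col12a1 (-0.92), the semaphorin receptors Nrp1 (-0.75) and Nrp2 (-0.84), the annexins Anxa5 (-0.79) and Anxa8 (-0.73) and the galectins Lgals1 (-0.65) and Lgals3 (-0.63) also had passing falls, of which that of Lgals1 was kept in 18 of 22 fits. For Lgals1, Anxa5 and Nrp2 the larger part of the contrast came from day 5, which ended above day 0. Their differences of day 3 from day 0 were -0.24, -0.43 and -0.51. Those from day 5 were -1.06, -1.16 and -1.16. In a group of 6 epithelial factors, also put together after the values were seen, 5 had passing rises. Among these were the splicing factor Esrp1 (0.96), the GTPase Rab25 (0.99) and the polarity protein Crb3 (0.67). The rise of Crb3 was kept in 8 of 22 fits and that of Esrp1 in 17. Grhl2, an epithelial transcription factor of the same group, was not called (0.13, adjusted p = 0.15), with means of 8.24, 9.01, 8.40 and 8.29 at days 0, 1, 3 and 5. Esrp1 averaged 8.79, 9.74, 10.50 and 10.30 at days 0, 1, 3 and 5 and thus kept nearly all of its rise.

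In the adhesion list, 7 of 25 genes were higher (4 without day 3 replicate 3) and 12 were lower. The higher ones were epithelial, namely the junction proteins Cldn6 (0.92), Cldn7 (0.76) and Ocln (0.71), with Epcam (0.35), Cdh3, Cdh1 (0.16) and the laminin Lama5, and none of them was a passing rise. Another claudin, Cldn4, was however among the lower genes, not as a passing fall. The passing falls were of Tnc (-1.18), Cdh11 (-1.15), Ncam1 (-1.05), the hyaluronan receptor Cd44 (-0.81) and the integrin Itga6 (-0.41). Of 22 actin cytoskeleton genes 9 were lower and 1, Cnn1 (0.51), was higher, but Acta2 alone was a passing fall. Cald1 (-0.81), Acta1 (-0.80) and Tln1 (-0.30) were called because they rose after day 3. Of 18 Hippo and Yap genes 7 were lower and Tead2 (0.61) was higher, with passing falls of the receptor kinase Axl (-0.94), Tead4, Ankrd1 (-0.60) and the coactivator Wwtr1 (-0.40). The fall of Ankrd1 was kept in 14 of 22 fits.

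Genes of signaling pathways were called in both directions. Of 18 genes of Lif and Stat3 signaling 10 were lower and 1, Pim2, was higher (median -0.22). Il6st, the gp130 chain of the Lif receptor, was at 10.28, 10.21 and 10.27 at day 3, against 10.59, 10.50 and 10.54 at day 0 and 10.48, 10.62 and 10.73 at day 5 (contrast -0.32, adjusted p = 0.0014 from limma), and its kinase Jak1 (-0.40) had a passing fall as well, beside Klf4 and Klf5. Jak2 (-0.56) was called because it rose after day 3. Of 26 genes of Nodal, activin and Bmp signaling 6 were higher and 11 lower. The Nodal antagonist Lefty1 (0.80) and the Smad corepressor Skil (0.61) had passing rises, and Bmp4, Id4 (-0.70), Nodal and Smad2 (-0.24) passing falls. These falls were 4 with all arrays, 2 without day 0 replicate 1 or day 3 replicate 1 and 1 without day 3 replicate 2, with that of Smad2 kept in 12 of 22 fits, and the 6 higher genes were 3 with centred arrays.

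Of 22 Fgf and Erk genes 5 were higher (2 with centred arrays or without day 3 replicate 2, 3 without day 3 replicate 3) and 7 lower, with a passing rise of Fgf15 and passing falls of the feedback inhibitors Spred1 (-0.38) and Dusp4 (-0.55), the last kept in 10 of 22 fits. Of 23 immediate early genes 3 were higher and 5 lower (3 without day 3 replicate 1 or 2): Fos (-0.64) and Atf3 (-0.58) had passing falls, Klf10 (0.30) and Ier3 (0.97) passing rises, that of Klf10 lost with centred arrays and that of Ier3 kept in 9 of 22 fits. Of 14 Wnt target genes 2 were higher and 5 lower, with passing falls of Axin2 (-0.70) and the antagonist Dkk1 (-0.53) and a passing rise of Nkd2 (0.43), where the fall of Axin2 was lost without day 3 replicate 3. Among the ligands and receptors of Wnt signaling, 5 of 32 lay higher and 7 lower. Sfrp2, a secreted Wnt antagonist, was the largest of them, with means of 9.06, 9.41, 10.21 and 9.32 at days 0, 1, 3 and 5 (contrast 1.02, standard error 0.07, adjusted p = 5.6e-07 from limma). The receptors Fzd3 (0.72) and Fzd4 (0.41) also had passing rises, and Wnt7b (-0.44) a passing fall, which was lost without day 0 replicate 1 or 3 or day 3 replicate 1 or 2.

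Glycolysis and hypoxia genes were high at day 3. Of 27 measured members 18 were higher and 1, Hk1 (-0.17), was lower (median 0.33), and 10 had a passing rise: Pfkl, Aldoa, Aldoc, Tpi1, Pgk1, Pgam1, Pkm and Ldha, which are enzymes of the glycolytic path, and Bnip3 and Ddit4, which hypoxia induces. Aldoc was at 10.62, 10.52 and 10.43 at day 3, against 9.13, 9.41 and 9.60 at day 0 and 9.22, 9.76 and 9.38 at day 5 (contrast 1.11, standard error 0.11, adjusted p = 2.2e-05 from limma). Bnip3, a mitophagy receptor, was at 11.82, 11.79 and 11.76 at day 3, against 10.61, 10.77 and 10.84 at day 0 and 10.98, 11.40 and 11.14 at day 5 (contrast 0.83, standard error 0.08, adjusted p = 1.6e-05). Ddit4, an inhibitor of mTORC1, was at 10.90, 10.80 and 10.90 at day 3, against 8.78, 9.23 and 9.30 at day 0 and 10.38, 10.47 and 10.37 at day 5 (contrast 1.11, standard error 0.09, adjusted p = 4.6e-06).

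No array of day 3 overlapped the other days for Aldoc, Bnip3 or Ddit4, and Aldoc returned while Ddit4 did not. Other enzymes of the path had contrasts of 0.54 (Pfkl), 0.33 (Ldha) and 0.29 (Pkm), the passing rise of Tpi1 was lost after further quantile normalization, with centred arrays and without day 5 replicate 1, and the call of Pgk1 as passing (0.23) held in 8 of 22 fits. The number of passing rises in the list was 8 to 12 over the alternatives. The glucose transporter Slc2a1 (0.32) and the lactate transporter Slc16a3 (0.51) were higher by day 3 and held. Of genes chosen after their values were seen that hypoxia is known to induce or that belong to glycogen and redox metabolism, Ero1a (0.66), Fam162a (0.65), Gbe1 (0.78), Pgm1 (0.80), Ndufa4l2 (0.55), Ccng2 (0.85) and Txnip (0.71) had passing rises in all 22 fits. Of 23 nuclear genes of oxidative phosphorylation none was called in either direction (median 0.01). Oxygen was not recorded in the sources used here.

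Promoters of 3 of these genes are shown as examples that hold a match. RefSeq (GRCm38.p6) promoters, 250 bases before to 50 after each start, were searched on both strands for ACGTG, the core of the hypoxia response element, which is also contained in the E-box CACGTG, once on each strand. Capitals mark the matches:
Bnip3 promoter, chr7:138909457-138909756 (-): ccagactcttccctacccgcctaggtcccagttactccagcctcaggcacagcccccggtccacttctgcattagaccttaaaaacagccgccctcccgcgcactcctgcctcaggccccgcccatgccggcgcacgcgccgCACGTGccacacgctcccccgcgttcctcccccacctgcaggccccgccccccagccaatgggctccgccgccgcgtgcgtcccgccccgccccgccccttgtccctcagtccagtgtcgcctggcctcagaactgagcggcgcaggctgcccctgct
Aldoc promoter, chr11:78322823-78323122 (+): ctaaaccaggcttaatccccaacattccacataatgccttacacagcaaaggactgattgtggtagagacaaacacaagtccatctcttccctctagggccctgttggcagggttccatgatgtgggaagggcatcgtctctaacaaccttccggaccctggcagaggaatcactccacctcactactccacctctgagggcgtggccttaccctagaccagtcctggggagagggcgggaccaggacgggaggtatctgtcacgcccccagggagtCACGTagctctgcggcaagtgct
Ddit4 promoter, chr10:59951721-59952020 (-): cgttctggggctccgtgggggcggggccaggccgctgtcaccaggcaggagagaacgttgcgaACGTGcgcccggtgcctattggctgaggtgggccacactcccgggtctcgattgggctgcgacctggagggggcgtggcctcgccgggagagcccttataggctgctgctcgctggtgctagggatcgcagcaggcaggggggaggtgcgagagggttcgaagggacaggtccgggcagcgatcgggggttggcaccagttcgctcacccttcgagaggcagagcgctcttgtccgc
The Bnip3 promoter holds 2 matches that overlap in 1 E-box, and the others 1 match each, while another start of Aldoc has a promoter with 0 matches. The promoter of Pfkl, also a passing rise, has 0 matches and is not printed. ACGTG was found for 19 of the 25 glycolysis and hypoxia genes with a promoter in the table and for 8 of the 10 with a passing rise, beside 24.4% of all 15614 genes with a promoter. The share was 33.6% among passing rises (217 of 646) and 24.3% among passing falls (115 of 473). AAGGTCA, the element that Esrrb recognises, was found for 3.9% of the passing rises and 3.2% of the passing falls, beside 4.5% of all. These counts describe letters in a window and not binding.

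Sterol and lysosome genes were also among the passing rises, but the means of both lists were already at their day 3 level at day 1. For the sterol list the mean was 10.46 to 10.54 on the arrays of day 3 and 10.52 to 10.55 at day 1. For the lysosome list it was 10.14 to 10.24 at day 3 and 10.18 at day 1. Of 22 genes of sterol synthesis 11 were higher and 1, Ebp (-0.28), had a passing fall. Passing rises were those of the enzymes Lss (0.39), Mvd (0.37), Dhcr7 (0.35), Fdps (0.32) and Sqle (0.32) and of the sterol carrier Stard4 (0.30), while the sterol sensor Insig1 (0.40) was higher and held. With arrays centred on their medians 1 of these 6 passing rises was left, and that of Sqle was kept in 10 of 22 fits. The fall of Ebp was lost without day 0 replicate 2, day 3 replicate 1 or 2 or day 5 replicate 1. Of 21 genes of the lysosome and of Tfe3 targets 10 were higher and none lower, with passing rises of Rragd, a GTPase that activates mTORC1 at the lysosome (0.84, adjusted p = 1.4e-06 from limma), the sialidase Neu1 (0.56), the hexosaminidase Hexa (0.38) and Tfe3 itself (0.33), the last kept in 13 of 22 fits. The count of 10 was 5 with centred arrays, with the 9 arrays of days 3, 0 and 5 and without day 3 replicate 1, 6 without day 5 replicate 3 and 4 without day 3 replicate 2. The E-box TCACGTGA that Tfe3 and its relatives recognise was found in 5 of the 19 promoters of this list, beside 1.5% of all, but in 0 of the 4 genes with a passing rise.

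Of 25 genes of the amino acid stress response 8 were higher (5 with centred arrays or without day 0 replicate 1 or day 3 replicate 3) and 6 lower. Psat1 (0.33) and Phgdh (0.53), both of serine synthesis, and Ddit4 had passing rises, and Asns (-0.28), Slc7a1 (-0.36), Sesn2 (-0.23) and Ppp1r15a (-0.22) passing falls. Of these 4 falls 0 were left without day 3 replicate 2, 2 without day 3 replicate 3 and 1 without day 5 replicate 1 or 3. Of 17 aminoacyl tRNA synthetases 1, Sars (0.17), was higher. Of 20 heat shock and unfolded protein response genes 8 were lower (4 without day 3 replicate 2 or 3) and none higher, with a passing fall of the chaperone Dnajb9 (-0.42) alone, which was lost without day 3 replicate 2 or day 5 replicate 3. Of 17 p53 targets 9 were lower and 1 higher. Plk2 (-0.71), the p53 inhibitor Mdm2 (-0.27), Sesn2 and Ei24 (-0.23) had passing falls and Bbc3 (0.27) a passing rise, and of these 4 falls 1 was left without day 3 replicate 2 or day 5 replicate 1, and 2 without day 3 replicate 1 or 3 or day 5 replicate 3. The passing rise of Bbc3 was kept in 10 of 22 fits and was lost without any 1 array of days 0 or 5, without day 1 replicate 2, without day 3 replicate 2 or 3, with array quality weights, after further quantile normalization and with centred arrays.

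Growth and cell cycle genes were called in both directions, but mostly no more often than genes at large. For ribosome biogenesis and for the G2 and M phases both shares lay below those of all genes (10.4% higher and 11.2% lower). For the G1 and S phases they lay above, at 18.2% each. Of 30 genes of ribosome biogenesis and Myc targets 3 were higher and 1 lower, and that one, Myc, had a passing fall (-0.46, adjusted p = 0.0021 from limma) kept in 17 of 22 fits. Of 22 genes of the G1 and S phases 4 were higher (1 with centred arrays or without day 3 replicate 1) and 4 lower (1 without day 3 replicate 2), with a passing fall of the cyclin Ccnd2 (-0.75) and passing rises of the inhibitor Cdkn1c (0.32) and of Mcm6 (0.18). That of Cdkn1c was lost with centred arrays and without day 3 replicate 2, and that of Mcm6 was kept in 15 of 22 fits, so that 0 of the 2 were left with centred arrays. Of 21 genes of the G2 and M phases 2 were higher, of which Bub1 had a passing rise that was lost with centred arrays, and 1 lower. Of 14 housekeeping genes Gusb (0.37) and Pgk1 had passing rises, 0 of them with centred arrays, and none was lower.

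Clock and neuronal genes held some of the larger passing rises. Of 17 clock genes 7 were higher (4 with centred arrays, 11 without day 5 replicate 2) and 1 lower, with passing rises of Bhlhe41, Per3 (0.48) and Per1 (0.22) and a passing fall of the activator Arntl, also named Bmal1 (-0.57). The rise of Per1 was kept in 11 of 22 fits. Arntl was at 8.41, 8.14 and 8.16 at day 3, against 8.89, 8.84 and 8.82 at day 0 and 8.66, 8.89 and 8.74 at day 5 (adjusted p = 7.6e-05 from limma). The hour of harvest was not given in the sources used here. Of 24 neuronal vesicle and axon genes 10 were higher and 5 lower, with passing rises of Kif1a, Syt11, the RNA-binding Elavl3 (0.55), the vesicle protein Syp (0.47) and Crmp1 and a passing fall of the neurofilament Nefm (-0.48). The rise of Crmp1 was kept in 12 of 22 fits, and the fall of Nefm was lost without day 0 replicate 1 or day 3 replicate 2. Of 25 maternal and germline genes 5 were higher and 4 lower (7 after further quantile normalization), with a passing rise of Tdrd1, a piRNA pathway protein (0.76). Mael (0.66) and Tdrd12 (0.72) were called because they fell after day 3, and Khdc3 (-1.24) because it had fallen by day 3.

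Further meiosis genes, chosen after their values were seen, had passing rises: the recombinase Dmc1 (0.77), the synaptonemal complex protein Syce2 (0.66), the meiotic cohesin Rad21l (0.70), Meiob (0.76), Meioc (0.76) and Cntd1 (0.70). Dmc1 was at 8.77, 8.70 and 8.73 at day 3, against 8.15, 8.15 and 8.18 at day 0 and 7.66, 7.94 and 7.66 at day 5, with day 3 above all others and day 5 below day 0. For Meiob the arrays of day 3 overlapped the others, and its passing rise was kept in 16 of 21 fits and that of Meioc in 18 of 22. Meioc at day 3 stood only 0.28 above day 0 but 1.23 above day 5. Of 8 genes of the 2-cell-like state 1 was lower, Eif1a (-0.19). Of 19 interferon-stimulated genes 3 were higher and 1 lower, with a passing rise of the tetherin gene Bst2 (0.66) and a passing fall of the RNA sensor Ddx58 (-0.64).

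On chromosome 12 many noncoding genes of 1 region, chosen after the values were seen, had passing rises. Between Dlk1 and Dio3, an imprinted region of microRNA and other noncoding RNA genes expressed from the maternal copy, 48 genes were measured. Of these 28 were higher and 0 lower, and 21 had a passing rise (43.8%, against 4.36% of all genes), with a median contrast of 0.36. Meg3, the long noncoding RNA at the start of the maternal transcripts, was at 10.99, 11.16 and 11.21 at day 3, against 10.22, 10.03 and 10.16 at day 0 and 10.26, 10.32 and 10.10 at day 5 (contrast 0.94, standard error 0.07, adjusted p = 1.1e-06 from limma). Day 3 did not overlap the other days, and day 5 stood 0.09 from day 0.

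Of the 40 microRNA genes of this region 24 were higher and 19 had a passing rise, and the contrast of all 40 was above 0. Their day means ran from 2.55 to 9.53, so that some of them were dim, far below the array medians. Mir380 was at 7.31, 6.94 and 7.52 at day 3, against 6.33, 6.22 and 5.97 at day 0 and 6.18, 6.12 and 6.09 at day 5 (contrast 1.10, standard error 0.11, adjusted p = 1.6e-05 from limma). Mir300 was at 7.47, 7.26 and 7.20 at day 3, against 6.06, 6.23 and 6.0 at day 0 and 6.44, 6.67 and 6.64 at day 5 (contrast 0.97, adjusted p = 3.4e-06). Mir379 had the largest contrast of the region (1.18, adjusted p = 0.0052) and the widest spread, with 5.39, 5.53 and 5.72 at day 3, against 4.85, 3.71 and 4.12 at day 0 and 4.22, 5.16 and 4.17 at day 5, and its call was kept in 17 of 21 fits. Mir539 (0.82), Mir329 (0.81), Mir487b (0.78), Mir382 (0.76), Mir381 (0.70) and Mir411 (0.70) followed.

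The protein-coding genes of the same region, Dlk1 (0.03), Rtl1 (0.17) and Dio3 (-0.02), which are expressed from the paternal copy, were not called. The noncoding Rian (0.42) was called because it fell after day 3. Of the 21 genes with a passing rise, Mir300, Mir382, Mir127 and Mir134 were still called higher at day 5 than at day 0. Genes of 1 transcript share their source, so that these members are not independent of each other. The number of passing rises here was 15 without day 3 replicate 3, 16 without day 5 replicate 3 and 16 with centred arrays, and 17 to 23 under the other alternatives. Of the 256 microRNA genes elsewhere 15 were higher, 3 lower and 9 had a passing rise (3.52%), and on chromosome 12 outside the region 32 of 605 genes had one (5.29%).

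**Figure D5:**
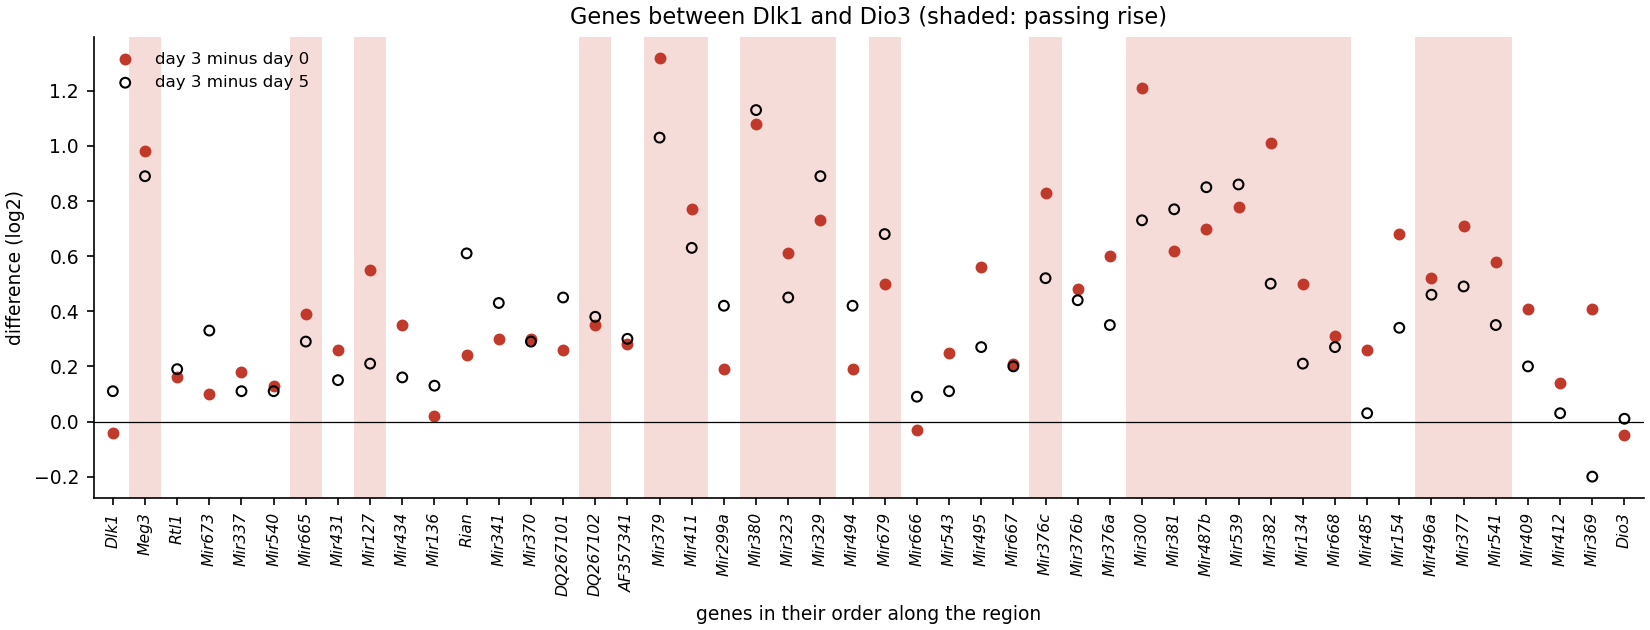
Difference of day 3 from day 0 (filled points) and from day 5 (open circles), in log2 units, for the 48 measured genes between Dlk1 and Dio3 in their order along the region, with passing rises shaded. Meg3 and most of the microRNA genes in the middle lie above 0 in both differences, and Dlk1, Rtl1 and Dio3 lie near 0.

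On the X chromosome the cluster of Mir363 moved in the same direction. Mir106a (0.69) and Mir20b (0.63) had passing rises as well, kept in 13 and 16 of 21 fits, while Mir19b-2 (0.42) was higher and held and Mir92-2 (0.27) was called because it fell after day 3. Mir363 averaged 4.84, 6.80, 7.73 and 6.74 at days 0, 1, 3 and 5. The arrays measure precursor or host transcripts and do not tell the 2 arms of a microRNA apart. In all, 28 of 296 microRNA genes had a passing rise (9.46%) and 0 a passing fall.

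The mature sequences of the microRNA genes that lead these results are shown, since the seed (bases 2 to 8, in capitals) sets which messages a microRNA pairs with. RefSeq (GRCm38.p6) gave a mature sequence for all 28 of the genes with a passing rise. In the X-linked cluster Mir106a and Mir20b share a seed and Mir363 has another:
mmu-miR-106a-5p: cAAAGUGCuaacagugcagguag
mmu-miR-20b-5p: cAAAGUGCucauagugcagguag
mmu-miR-363-3p: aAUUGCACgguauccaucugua
In the imprinted region the 3' arms of Mir379 and Mir411 share a seed, while the seeds of their 5' arms, not printed, differ. The 3' arms of Mir380, Mir300 and Mir381 each have a seed of their own:
mmu-miR-379-3p: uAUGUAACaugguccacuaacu
mmu-miR-411-3p: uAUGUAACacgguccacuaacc
mmu-miR-380-3p: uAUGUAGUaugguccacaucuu
mmu-miR-300-3p: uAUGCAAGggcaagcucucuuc
mmu-miR-381-3p: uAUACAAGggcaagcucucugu
These genes had contrasts of 0.63 (Mir20b) to 1.94 (Mir363).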

How the data were processed

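The authors normalized 12 Affymetrix Mouse Gene 1.0 ST arrays with the Robust Multichip Average (RMA) as implemented in Expression Console, whose version the sources used here do not give, and deposited the log2 signal of each probe set. Of 35557 probe sets, 21789 had 1 symbol in the platform annotation and were averaged to 19938 genes; 1621 with several symbols and 12147 with none entered only the alternative on every probe set. No further normalization was applied.

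A model with a mean per day was fitted to all 12 arrays by lmFit and eBayes of limma 3.58.1, under R 4.3.3 (8 residual and 4.63 prior degrees of freedom). Benjamini-Hochberg adjustment ran over all 19938 genes, with calls at 0.05. Differences of day 3 from day 0 and from day 5, and of day 5 from day 0, came from the same fit. For 1 gene alone, 3 arrays against 6 allow no permutation p below 0.012. The procedure was tested on simulated data first.

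The members, the 37 gene lists and the tests were chosen with earlier results of these data known. Genes named are those the paper treats as core factors or checked targets, the 12 largest passing contrasts in each direction without overlap of arrays, the 6 largest in each direction with day 5 within 0.2 of day 0, the 3 largest in each direction that are called but not passing, and up to 4 leading and 3 opposite members of each list. Genes outside this rule, among them the further passing members of the lists, were chosen after their values were seen. Alternatives were a replicate block, 9 arrays without day 1, array quality weights, a trended robust variance, further quantile normalization, median centring, the brightest probe set, every probe set, genes at or above the median level, a reference interpolated in time, a difference above 0.5, and each array left out; 9 arrays with quality weights were added after seeing the data. A count of 22 fits leaves out the reference, the threshold on the difference and every probe set. The measurements of histone marks, methylation and protein were not analysed here. Python 3.11.15, numpy 2.4.6, pandas 2.3.3 and matplotlib 3.10.9 made the tables and plots.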

Additional observations from a re-analysis of the deposited data

Results flagged for a closer look

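Probe sets that carry no gene symbol, or several, stand outside the comparisons by gene and held passing changes of their own when every probe set was tested with limma. Of the 12147 probe sets with no symbol 157 had a passing rise and 47 a passing fall (1.29% and 0.387%), with contrasts of up to 1.87 and down to -1.84. Of the 1621 probe sets with several symbols 35 had a passing rise and 12 a passing fall (2.16% and 0.74%), with contrasts of up to 1.06 and down to -0.71. Among the 21789 probe sets with 1 symbol 739 had a passing rise and 506 a passing fall (3.39% and 2.32%).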

How the results depend on the processing

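No called contrast of a named gene changed sign under the alternatives run for it, but the balance of the counts did: passing rises outnumbered passing falls in the stated fit, were as many after further quantile normalization (756 of each) and were fewer with centred arrays, and genes higher than the average were fewer than genes lower, except with every probe set (2476 and 2291). The counts of genes higher and lower in the contrast (2064 and 2232) became 1263 and 3062 with arrays centred on their medians and 365 and 411 with a difference above 0.5, and the passing rises and falls (869 and 605) became 475 and 828, and 139 and 98. With each array left out in turn, 1493 to 2181 genes were higher, 1561 to 2300 lower, 659 to 850 had a passing rise and 415 to 583 a passing fall, and 66.0% to 71.6% of passing genes were not called between days 5 and 0. With a replicate block the counts were 1885, 2060, 791 and 539, but same-numbered arrays did not deviate together (correlations of -0.17 to 0.071), so the numbers do not pair the samples. The 9 arrays alone gave 1760, 1926, 734 and 501, and with array quality weights, added after seeing the data, 2218, 2426, 860 and 616. For named genes the contrast passed in the stated fit and missed the threshold in 166 combinations of gene and alternative, and 5 went the other way. What signal over background limits for dim probe sets was not analysed here.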

Other observations

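The share of genes with a passing rise was highest on chromosomes 12 and X, which was not tested. Chromosome 12, with the imprinted region, had them in 8.12% of its measured genes, the X chromosome in 6.74% and chromosome 15 in 5.98%, beside 4.36% over all genes. Chromosome 15 also had the fewest passing falls (1.20%, beside 3.03% over all genes), and chromosome 16 the fewest passing rises (2.93%).

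Some passing genes outside the lists moved by about 1 on the log2 scale and were chosen after their values were seen. Myb, a transcription factor of blood progenitors, averaged 7.81, 8.02, 8.85 and 7.76 at days 0, 1, 3 and 5 (contrast 1.07), Ndrg2 8.89, 8.63, 9.57 and 8.10 (1.08), and Gatm, which begins creatine synthesis, 6.37, 6.95, 8.04 and 7.60 (1.06). Edn1, the vasoconstrictor endothelin 1, averaged 7.04, 6.48, 6.46 and 7.97 (contrast -1.05), and the serpin Serpinb9 6.52, 6.33, 5.84 and 7.53 (-1.19), next to its relative Serpinb9b in the report. Of the Mir34 genes, which p53 induces, Mir34a had a passing rise of 0.60, lost without day 3 replicate 3 or day 5 replicate 3, while Mir34b (-0.06) and Mir34c (-0.04) were not called.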
